A study of Rattus norvegicus with 11 samples.

Results

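The comparison described here is that of spinal cord stimulation against sham treatment in rats that had all been given paclitaxel. Its members were chosen by the group label and the tissue of each sample: 3 stimulated libraries (PTX+SCS, named SCS 1, SCS 2 and SCS 5 after the numbers in their titles) and 5 sham libraries (PTX+Sham SCS, sham 1 to sham 5), 8 of the 11 spinal cord libraries analysed in all. Both groups were adult male rats weighing 350 to 400 g, both received intraperitoneal paclitaxel (1.5 mg/kg, on each of days 1, 3, 5 and 7), and both carried a stimulation electrode, so that by the labels the groups differed only in whether current was applied. In the stimulated group the current was given as pulses of 0.2 ms at 50 Hz. Its amplitude was 80% MoT, an abbreviation that the labels do not spell out. The 3 remaining libraries came from naive rats with neither drug nor electrode, and their levels are given for reference only. Poly(A)-selected RNA from the ipsilateral spinal cord was sequenced. The labels name neither the spinal segment nor the side that "ipsilateral" refers to, and they do not state that each library came from a separate rat, so the tests below measure the spread between these libraries.

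Paclitaxel stabilises microtubules and is used against solid tumours, and a painful sensory neuropathy is a well known side effect of it. Spinal cord stimulation delivers current through an electrode over the dorsal columns, the ascending tracts of touch fibres. Activity in these fibres is thought to recruit inhibitory interneurons of the dorsal horn, and glial cells of the cord are also studied as responders to both nerve injury and stimulation.

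The deposited table identifies genes by Ensembl rat gene IDs alone, and none of its 32623 IDs could be paired with a symbol from the tables used here. Functions, cell types and the tissue's defining markers could therefore not be read from the data, and the groups of genes below are defined by direction, abundance and size of change. In this bulk tissue, a change in the number of cells of a type cannot be told apart from a change in RNA per cell. Total counts were 18633243 to 29395233 in the stimulated and 11243288 to 22144967 in the sham libraries, with counts in 19067 to 19502 and in 18105 to 19232 genes. On the first principal component, which held 35.9% of the variance of log2 CPM (CPM being counts scaled to a common library total), SCS 2 lay at 43.1, SCS 1 at 20.7 and SCS 5 at 10.6. Sham 5 lay nearest to them at 4.87, and sham 4, sham 1, sham 3 and sham 2 followed at -9.12, -17.5, -18.3 and -34.4.

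The comparison asks which genes differed between the stimulated and the sham cord libraries of paclitaxel-treated rats with an implanted electrode. Of the 15571 genes tested, 127 were higher in the stimulated libraries and 13 were lower (edgeR quasi-likelihood test, Benjamini-Hochberg adjusted p under 0.05). These 140 genes were 0.899% of those tested, the higher ones 0.816% and the lower ones 0.0835%. Log2 fold changes of the 127 higher genes had a median of 0.84, quartiles of 0.61 and 1.14 and a maximum of 3.94. Those of the 13 lower genes had a median of -0.45, quartiles of -0.54 and -0.36 and a minimum of -0.94. Over all genes tested the median log2 fold change was -0.01, and 48.3% of the values were positive.

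The stimulated and sham libraries did not overlap in 126 of the 127 higher genes and in all 13 lower genes. Non-overlap was found in 10.3% of all genes tested, with the stimulated libraries above in 1012 genes and below in 590. Before adjustment, p was under 0.05 in 2586 genes, or 16.6% of those tested, of which 1694 (65.5%) were higher in the stimulated libraries. The share of higher genes was thus smaller in this wider group than the 90.7% found among the 140 genes. All 140 calls lay close to the threshold, with edgeR adjusted p between 0.0197 and 0.0498, and in 80 of the higher and 12 of the lower genes it was above 0.045. A fit of all 11 libraries, which takes the naive libraries into the estimate of spread, called 563 genes (3.57% of the 15758 tested there), 472 of them higher. Without SCS 2, or without sham 3, the edgeR test called 0 genes (1526 and 2322 at an unadjusted p under 0.05).

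**Figure D1:**
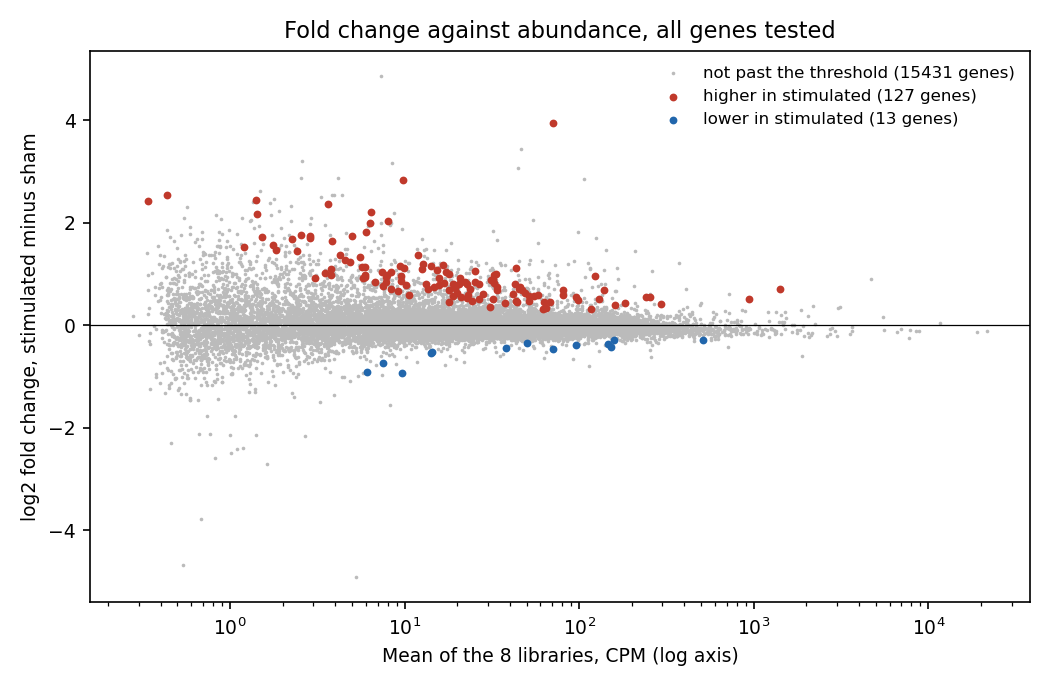
Log2 fold change (stimulated minus sham) against the mean level over the 8 libraries in CPM, on a log axis, with 1 point per gene tested. The 127 higher genes (red) reach 3.94, while the 13 lower genes (blue) stop at -0.94, and the grey points are genes not past the threshold.

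The higher genes had a median of 17.9 CPM (range 0.338 to 1420) and the lower genes one of 50.0 CPM (range 6.11 to 510), beside 21.1 CPM over all genes tested. Genes between 1 and 10 CPM held 45 of the higher genes, with a median log2 fold change of 1.24. Genes between 10 and 100 CPM, which made up 8233 of the 15571 tested, held 69 of the 127, with a median of 0.71, and genes at 100 CPM or more held 11, with a median of 0.51. The lower genes were spread as 3, 6 and 4 over these classes, with medians of -0.92, -0.45 and -0.33. Below 1 CPM lay 2 of the higher and none of the lower genes, with 1088 genes tested. The share of genes called was 1.16%, 0.911% and 0.713% in the 3 upper classes and 0.184% below 1 CPM. The median standard error (SE) of the log2 fold change was 0.44 below 1 CPM, 0.22 from 1 to 10 CPM, 0.09 from 10 to 100 CPM and 0.07 above that.

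Large changes were confined, among the genes called, to the higher group. At least 2-fold higher were 44 of the 127 genes, and 9 of these were at least 4-fold higher. These 9 had a median of 3.66 CPM. A rise of less than 1.5-fold was called in 28 genes, at a median of 58.4 CPM. None of the 13 lower genes fell 2-fold, and 10 of them fell by less than 1.5-fold, at a median of 83.6 CPM. Of all genes tested, called or not, 371 were at least 2-fold higher in the fit and 67 at least 2-fold lower.

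The gene IDs described from here on were picked from called genes with no overlap between the groups, so their non-overlap is no separate result. The gene ID with the highest fold change among those called was ENSRNOG00000013973. It was measured at 95.8 CPM in SCS 1, 169.7 CPM in SCS 2 and 243 CPM in SCS 5. In sham 1 to sham 5 it was at 6.80, 3.52, 7.29, 18.3 and 19.8 CPM. The lowest stimulated library was well above the highest sham library, and unlike most higher genes this one was highest in SCS 5. Its log2 fold change was 3.94 ± 0.58 (SE, edgeR adjusted p = 0.0474). In the naive libraries it stood at 2.49, 1.62 and 1.75 CPM, below every sham library.

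ENSRNOG00000005659 was the second highest. It stood at 18 CPM in SCS 1, 29.3 CPM in SCS 2 and 16.4 CPM in SCS 5. Sham 1 held it at 5.96 CPM, and sham 2 to sham 5 at 2.01, 2.38, 1.97 and 1.89 CPM. The groups did not overlap, and sham 1 stood apart from the other sham libraries. The log2 fold change was 2.84 ± 0.40 (SE, edgeR adjusted p = 0.0373), and without sham 1 it was 3.36 (edgeR adjusted p = 0.000194). The naive libraries, at 0.232, 4.5 and 1.01 CPM, covered the range of sham 2 to sham 5.

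The lowest fold change among the genes called belonged to ENSRNOG00000015763. It was at 6.28, 6.87 and 5.44 CPM in SCS 1, SCS 2 and SCS 5, a narrow band. In sham 1 to sham 5 it was at 9.97, 14.2, 12.6, 8.40 and 14 CPM. No stimulated library reached the lowest sham library, and SCS 5 was the lowest of all 8. The log2 fold change was -0.94 ± 0.18 (SE, edgeR adjusted p = 0.0455). In naive libraries it was measured at 16.3, 16.4 and 12.6 CPM, which overlaps the upper sham libraries.

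ENSRNOG00000015860 fell from 7.43 ± 0.63 CPM in the sham libraries (SD, n = 5) to 3.91 ± 1.10 CPM in the stimulated libraries (SD, n = 3). Its single values were 4.08, 2.74 and 4.91 CPM in SCS 1, SCS 2 and SCS 5, against 7.03, 7.92, 8.0, 6.52 and 7.65 CPM in sham 1 to sham 5. Here SCS 2 was the lowest and SCS 5 the nearest to the sham libraries, which themselves differed little. The log2 fold change was -0.92 ± 0.18 (SE, edgeR adjusted p = 0.0474). The naive libraries were at 4.34, 7.75 and 6.92 CPM, which spans the gap between the groups.

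These 4 calls were sensitive to the libraries in the fit. Without SCS 2 the edgeR adjusted p of the 4 IDs was 0.224, 0.147, 0.142 and 0.189 in the order given, while the log2 fold changes were 3.94, 2.55, -1.02 and -0.73. Without sham 3 the adjusted p was 0.128, 0.103, 0.105 and 0.112.

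**Figure D2:**
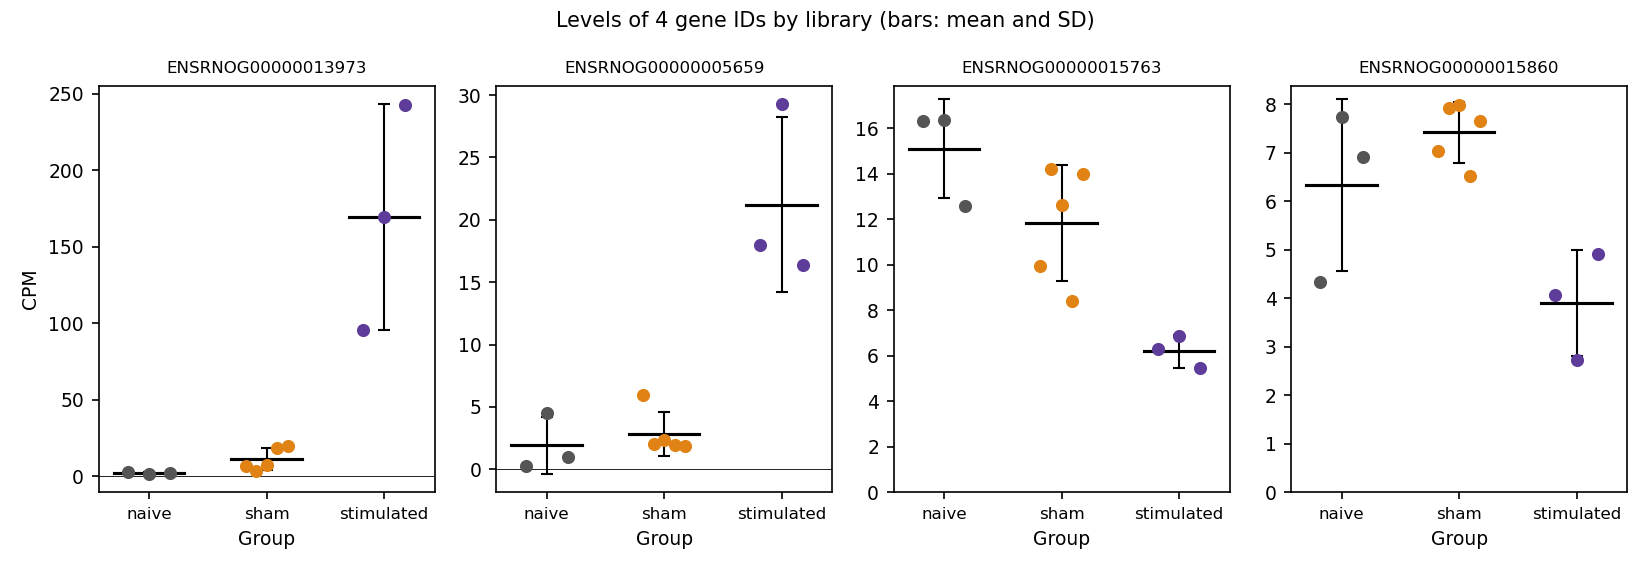
Levels in CPM of the 4 gene IDs in the 3 naive, 5 sham and 3 stimulated libraries, 1 point per library, with a bar for the mean and an error bar for the SD. The stimulated libraries lie above every sham library in ENSRNOG00000013973 and ENSRNOG00000005659 and below every sham library in ENSRNOG00000015763 and ENSRNOG00000015860. Non-overlap of the groups was required for an ID to be picked.

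The 3 stimulated libraries did not contribute equally to the genes that rose. Each library was described by its log2 CPM minus the mean of the 5 sham libraries, and since these libraries also made the calls, the values below carry no test. Over the 127 higher genes the median was 1.08 in SCS 2 (interquartile range 0.73 to 1.42), 0.78 in SCS 1 (0.57 to 1.18) and 0.61 in SCS 5 (0.47 to 0.85). SCS 2 stood at least 2-fold above the sham mean in 72 of these genes, SCS 1 in 45 and SCS 5 in 20. As a share of the summed shift of the 3 libraries, the median gene took 41.6% from SCS 2, 32.7% from SCS 1 and 25.6% from SCS 5. SCS 1 and SCS 2 were above all 5 sham libraries in all 127 genes, and SCS 5 in 126. In the 397 higher genes called without SCS 5, its median was 0.41, against 1.00 for the mean of the kept stimulated libraries. In the 49 called without SCS 1, that library had 0.55 against 0.77. The lower genes called without SCS 5 and without SCS 1 numbered 53 and 7. Their medians were -0.15 against -0.42 and -0.04 against -0.53. These values still share the sham libraries with the calls.

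**Figure D3:**
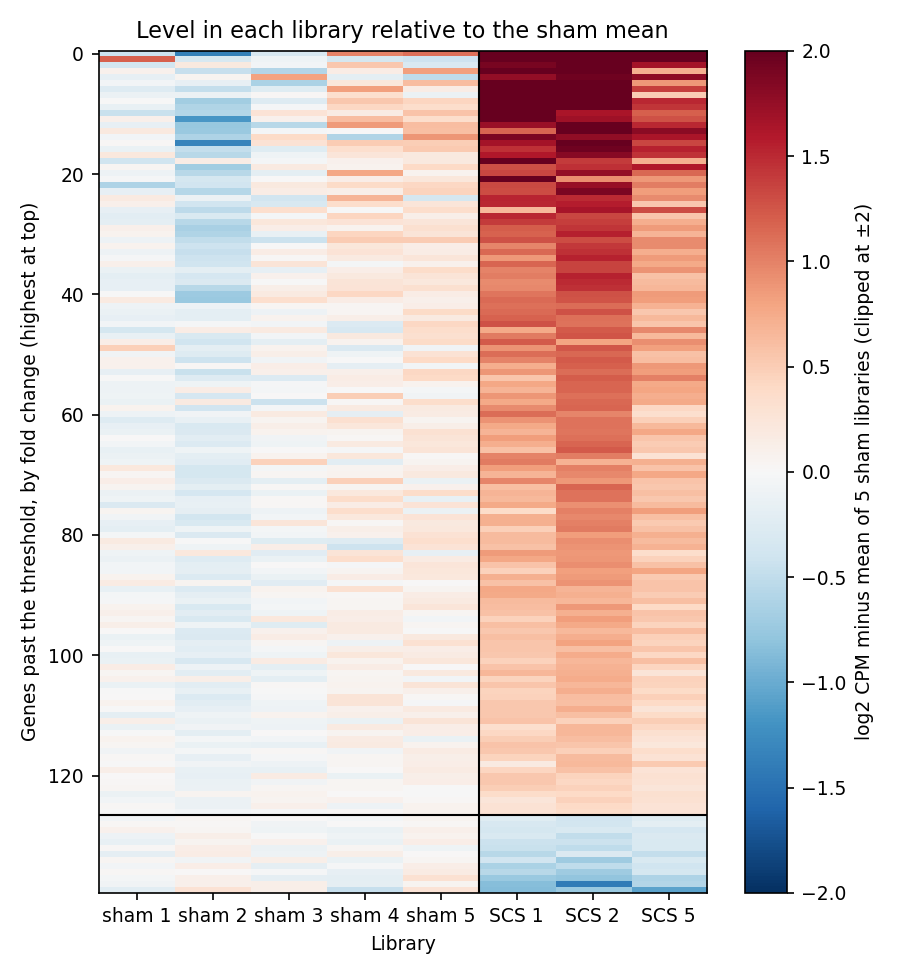
Heat map of the 140 genes past the threshold (rows, ordered by fold change) in the 5 sham and 3 stimulated libraries (columns). Colour gives log2 CPM minus the mean of the 5 sham libraries, clipped at 2 in either direction, and the lines part the groups and the 127 higher from the 13 lower genes. The reds are deepest in SCS 2 and palest, among the stimulated libraries, in SCS 5.

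One order of the stimulated libraries prevailed. SCS 2 was the highest of the 3 stimulated libraries in 99 of the 127 higher genes (78.0%), SCS 1 in 26 and SCS 5 in 2. SCS 5 was the lowest of the 3 in 96 genes, SCS 1 in 28 and SCS 2 in 3. The full order SCS 2, SCS 1, SCS 5 held in 73 genes (57.5%). Over all genes tested, by contrast, SCS 2 was the highest in 37.2%, SCS 1 in 32.7% and SCS 5 in 30.1%, and the same full order held in 17.5%. In the 13 lower genes the order was mirrored. SCS 2 was the lowest in 9, and SCS 5 was the highest in 9, with medians of -0.50 in SCS 2, -0.45 in SCS 1 and -0.34 in SCS 5.

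The 3 libraries spread over a median range of 0.45 log2 units within a higher gene, and over at least 1 log2 unit in 10 of the 127. The range was under 0.5 in 76. Between the lowest stimulated and the highest sham library lay a median gap of 0.30 log2 units in the higher genes and of 0.19 in the lower genes. In 29 of the higher genes the gap was over 0.5, and in 8 that did not overlap it was under 0.1. The single higher gene that overlapped did so by 0.11 log2 units, in SCS 5. The SD between libraries had a median of 0.23 log2 units in stimulated and 0.22 in sham libraries over the higher genes. Over all genes tested it was 0.14 in both. These medians rest on 3 and 5 libraries and do not show an equal spread. The biological coefficient of variation, a measure of spread beyond counting noise, was 14.2% for stimulated and 11.1% for sham libraries.

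The distance of SCS 2 from the sham libraries was not limited to the genes called. Over all 15571 genes the median absolute difference from the sham mean was 0.20 log2 units in SCS 2, 0.13 in SCS 1 and 0.11 in SCS 5. Single sham libraries differed from the mean of the other sham libraries by 0.10 to 0.14, a range that takes in SCS 1 and SCS 5. SCS 2 was above all 5 sham libraries in 27.2% of all genes tested and below them all in 26.2%. For SCS 1 these shares were 19.9% and 18.2%, and for SCS 5 they were 17.3% and 15.1%. Any single library, stimulated or not, would lie outside the 5 sham libraries in a share of genes. These shares therefore do not by themselves show a shift of SCS 1 or SCS 5.

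**Figure D4:**
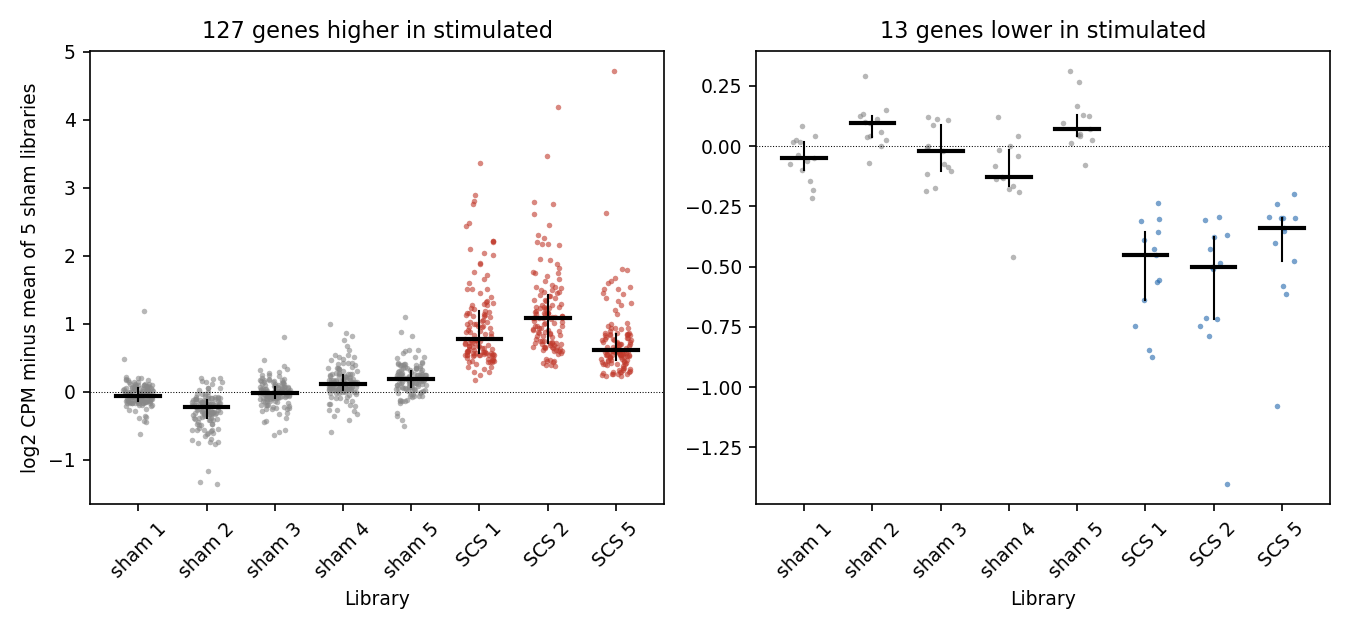
Log2 CPM minus the mean of the 5 sham libraries in each of the 8 libraries, for the 127 higher genes (left) and the 13 lower genes (right). Each point is a gene, the thick bar is the median and the thin line the interquartile range. In the left panel the medians are 0.78, 1.08 and 0.61 in SCS 1, SCS 2 and SCS 5, and from -0.22 to 0.18 in the sham libraries.

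The sham libraries also differed in how often each lay highest or lowest in the genes that rose. Sham 2 was the lowest of the 5 in 89 of the 127 higher genes (70.1%), against 19.8% of all genes tested. Sham 5 was the highest of the 5, and so the nearest to the stimulated libraries, in 65 (51.2%), against 26.7% of all genes tested, and sham 4 in 43. The median of the higher genes relative to the sham mean was -0.22 in sham 2, -0.05 in sham 1, -0.02 in sham 3, 0.12 in sham 4 and 0.18 in sham 5. This order of the sham libraries in the higher genes is close to that along the first principal component. Both come from the same libraries, so the likeness is no separate evidence. In the 13 lower genes sham 4, at a median of -0.13, was the nearest to the stimulated libraries in 6. Sham 5 was the nearest in 0 of the lower genes and the highest of the 5 in 6, at a median of 0.07. In the lower genes sham 5 thus departed from its place on that component.

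The count of genes past the threshold moved widely with the libraries in the fit. Since most calls lay just inside the threshold, and sham 3, whose median in the higher genes was close to the sham mean, also brought the count to 0 when left out, these counts do not measure how much a library contributed. With SCS 2 as the only stimulated library against the 5 sham libraries, 869 genes passed (5.58% of those tested), 648 higher and 221 lower. With SCS 1 alone 64 genes passed (0.411%), 60 of them higher, and with SCS 5 alone 0 passed (798 at an unadjusted p under 0.05). In these fits the lone library is assumed to vary as the sham libraries do. They share the sham libraries with each other, so they are set side by side and not compared. Without SCS 1 the count was 56, and without SCS 5, the library nearest to the sham group, it was 450, of which 397 were higher. Among the sham libraries, leaving out sham 5 gave 431 genes, and leaving out sham 1, sham 2 or sham 4 gave 10, 44 and 53.

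**Figure D5:**
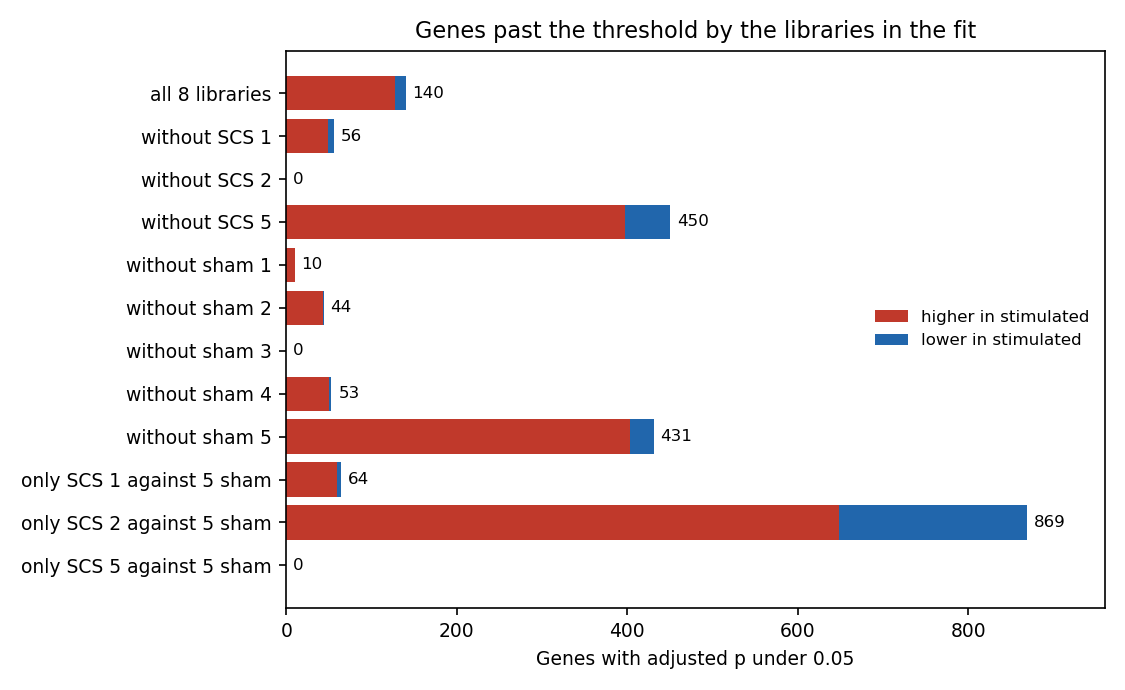
Number of genes with an adjusted p under 0.05 by the libraries in the edgeR fit, higher (red) and lower (blue) in the stimulated group. The count is 140 with all 8 libraries, 0 without SCS 2 or without sham 3, and 869 with SCS 2 as the only stimulated library.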

How the data were processed

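Whole-number counts per gene ID were made and deposited by the authors. Per the submitters' processing notes, HISAT2, featureCounts and DESeq2 were used with the genome build rn6. No version, annotation release or strand setting is given in the sources used here, so overlapping, antisense and near-identical genes are uncertain. Columns were matched to samples by title. The 17 columns that match no sample title were not analysed here, among them 3 whose names carry the letter S of the stimulated titles and the suffix SC. Their group is not given by the labels used here. The RefSeq gene table (47357 rows, GRCr8) carries 0 Ensembl IDs. The 42 gene lists and the rule for naming genes by symbol could therefore not be applied, and no promoter sequence could be assigned. By the fixed rule for that case, 2 IDs that rose and 2 that fell are printed, those with the highest and lowest log2 fold change among called genes with no overlap between the groups and a mean of 1 CPM or more. The comparison, gene lists and rules were chosen with earlier results of these data known.

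The 8 libraries were filtered with filterByExpr, which kept 15571 genes, scaled by TMM and fitted with a term for group and no covariate in edgeR 4.0.16 (R 4.3.3; robust quasi-likelihood fit, 6 residual degrees of freedom, two-sided). SE is the log2 fold change divided by the square root of F. Log2 CPM used a prior count of 2. Naive levels were scaled over all 11 libraries and are for reference. The naive libraries were left out of the fit because they spread least: the biological coefficient of variation was 6.88% for naive, 11.1% for sham and 14.2% for stimulated ones. Pairs of libraries within a group differed by a chi-square of at least 6.33 per degree of freedom, which is more than counting noise. This does not show that they came from separate rats. Alternatives used DESeq2 1.42.0, limma 3.58.1 and sva 3.50.0, other scalings and filters, and fits with fewer libraries.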

Additional observations from a re-analysis of the deposited data

Results flagged for a closer look

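ENSRNOG00000005659, called higher in the stimulated libraries, had 1 sham library apart from the rest on the log2 CPM scale. Sham 1 held it at 5.96 CPM and the other 4 sham libraries at 1.89 to 2.38 CPM, so that the gap to the nearest library was 0.800 of the whole range of the group, above Dixon's 95% critical value for 5 libraries. Among 9 sham values examined this was the only one, and about 1 group in 20 would be marked by chance. Sham 1 was still well below the lowest stimulated library, at 16.4 CPM.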

How the results depend on the processing

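The number of changed genes, 140, depended strongly on the setting. It was 773 with DESeq2, 563 with all 11 libraries in the fit, 484 at an adjusted p of 0.1, 1 with a surrogate variable (60.7% of whose variance lay between the groups), and 0 with a fold threshold of 1.5 (431 genes at an unadjusted p under 0.05). With 1 stimulated library against the sham group it was 64 (SCS 1), 869 (SCS 2) and 0 (SCS 5), and with any 1 of the 8 libraries left out it ran from 0 to 450. It stayed within 1.5 times with median-ratio (140) and upper-quartile scaling (141), and with no filter on low counts (202). The same held for limma-voom (117), limma-voom with quality weights (185) and thinning to the smallest total (176). Of the original 140 genes these settings called 137, 135, 130, 105, 122 and 105, in that order, so a similar count did not mean the same genes. The share of higher genes, 90.7%, was 81.1% with DESeq2, 83.8% with all 11 libraries, 74.6% with SCS 2 alone and 0% for the 1 gene called with a surrogate variable. Leaving out 1 library gave 87.5% to 100%, and no share could be given where 0 genes were called. With the replicate number as a block 0 genes passed (1656 at an unadjusted p under 0.05, smallest adjusted p 0.282). Deviations of same-numbered libraries correlated at 0.11, -0.16 and -0.18, and of the stimulated libraries only SCS 1 had its highest correlation with the sham library of its own number. No pairing was assumed. None of the 4 printed IDs changed sign in any of 23 alternatives, and their calls were lost in 13, 10, 12 and 11 of these, in the order of the report. The cause of these differences was not tested. The median SE of a log2 fold change was 0.44 below 1 CPM and 0.07 at 100 CPM or more, and its dependence on depth was not tested.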
